A study of Mus musculus with 64 samples.

Results

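The genes described here are 27 named genes of cholesterol synthesis and its control by the transcription factor SREBP2, picked by gene name out of 53008 gene names in a table of liver RNA counts. They cover the mevalonate steps (8 genes), the squalene steps (3 genes), the steps after squalene (9 genes) and a set of transport and regulatory genes (7 genes). Whole liver was taken after 16 weeks on diet from 4 groups of 4 libraries each. HuMgat2 mice were fed a high-fat diet (HFD) or chow, and wild-type (WT) mice were likewise fed HFD or chow. HuMgat2 mice are humanized animals that express human MOGAT2, a monoacylglycerol acyltransferase of dietary fat absorption, and WT mice carry the mouse gene, Mogat2. Mouse Mogat2 had 0 to 12 counts in a library, too few to check the genotype, and the human transcript was not analysed here. Strain, sex, age, feeding state and collection time are not given in the sources used here, and nothing states that each library is a separate animal. The p-values below therefore measure the spread between these libraries. The question was how the sterol synthesis genes stood in each genotype on each diet.

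Cholesterol is built from acetyl-CoA through mevalonate, isoprenoid diphosphates, squalene and lanosterol, and liver is a main site of this synthesis. When membrane sterol is low, the escort protein SCAP carries SREBP2 from the endoplasmic reticulum to the Golgi, where proteases release a fragment that enters the nucleus and binds sterol regulatory elements in the promoters of nearly every enzyme of the pathway. When sterol is plentiful, the INSIG proteins hold SCAP and SREBP2 in the endoplasmic reticulum and transcription of the pathway falls. NF-Y, which binds CCAAT boxes, and Sp1, which binds GC boxes, are known partners of SREBP2 at such promoters.

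Promoters are shown for the 4 members with the largest difference in diet effect between the genotypes among those with a promoter window in RefSeq (build GRCm38.p6, which is not the GRCm39 build of the counts). Each sequence is the 250 bases upstream of the annotated start, written 5′ to 3′ on the gene's strand. Capitals mark CCAAT boxes (CCAAT on either strand, which reads ATTGG on the other) and matches to the sterol regulatory element letters TCACNCCAC with at most 1 mismatch on either strand.
Idi1 (chr13:8885356-8885605, plus strand): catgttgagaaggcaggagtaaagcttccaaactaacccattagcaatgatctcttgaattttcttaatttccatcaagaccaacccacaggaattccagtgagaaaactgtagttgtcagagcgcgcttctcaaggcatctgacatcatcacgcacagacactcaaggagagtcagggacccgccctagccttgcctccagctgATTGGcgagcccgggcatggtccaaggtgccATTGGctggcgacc
Hmgcs1 (chr13:119690101-119690350, plus strand): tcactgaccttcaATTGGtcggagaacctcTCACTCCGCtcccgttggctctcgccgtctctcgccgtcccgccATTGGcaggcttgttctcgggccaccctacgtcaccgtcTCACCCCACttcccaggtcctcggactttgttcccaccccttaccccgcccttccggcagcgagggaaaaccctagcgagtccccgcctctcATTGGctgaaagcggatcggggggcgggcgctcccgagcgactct
Cyp51 (chr5:4104698-4104947, minus strand): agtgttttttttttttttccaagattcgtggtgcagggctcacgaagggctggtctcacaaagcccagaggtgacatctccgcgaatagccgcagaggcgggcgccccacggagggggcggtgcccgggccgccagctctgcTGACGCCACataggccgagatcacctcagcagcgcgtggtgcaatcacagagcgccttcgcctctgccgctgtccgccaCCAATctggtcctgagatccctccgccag
Mvd (chr8:122443423-122443672, minus strand): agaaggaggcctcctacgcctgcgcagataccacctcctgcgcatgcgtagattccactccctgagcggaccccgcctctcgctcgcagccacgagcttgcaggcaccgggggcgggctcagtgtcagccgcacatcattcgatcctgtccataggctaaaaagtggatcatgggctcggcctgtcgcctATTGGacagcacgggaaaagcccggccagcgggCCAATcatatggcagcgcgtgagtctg
Of the 27 members 23 had a window in the table (not Fdps, Fdft1, Sqle or Stard4), and for the motif counts the whole window was searched, from 250 bases before to 50 after the start, on both strands. A CCAAT box was present in 21 of the 23 (91.3%), against 41.06% of all 27025 genes with a window. A GC box (GGGCGG) was present in 20 (87%), against 38.2% of all genes. An exact TCACNCCAC was present in Hmgcs1 alone among the 23 members, and in 1.44% of all genes. With 1 mismatch allowed, a looser form chosen after the exact one had been searched, 11 members (47.8%) had a match, against 26.7% of all genes. The E-box CACGTG was present in 5 members (21.7%), against 8.09% of all genes. The Idi1 and Mvd windows held a pair of CCAAT boxes within the bases printed and no TCACNCCAC match at either stringency. These matches describe letters only, and overlapping matches of different motifs were counted for each motif.

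The 16 libraries held 12.4 to 25.8 M counted read pairs. WT HFD library 4 was the smallest and stood apart: albumin (Alb) took 0.85% of its counts, against 3.26% to 6.02% in the others, and its summed level of 7 macrophage markers was 793 counts per M (CPM), against 125 to 367 CPM in the other 15 libraries. The 5 hepatocyte markers in the table were abundant in every library, at a summed 47147 to 73299 CPM in the 15 others and 21901 CPM in WT HFD library 4. The 3 adipocyte markers summed to at most 0.14 CPM in any library. Counts of members called on WT HFD are given with and without library 4 below, and single values where they differ by much. Levels are CPM scaled by TMM, and a member is said to have risen or fallen where its adjusted p was below 0.05 over the 17318 genes tested. Of the 27 members 26 passed the filter on low counts. The exception was Npc1l1, a sterol uptake protein that mice express mainly in the intestine, with 0 to 3 counts a library and 11 counts in all.

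Cholesterol synthesis genes were lowest in WT livers on HFD. In WT mice 19 of the 27 members fell with HFD, 0 rose, and the median change over all 27 was -0.82 on the log2 scale, against 0.03 over all genes tested. Of all genes tested 6.74% were called lower and 8.37% higher in this comparison. For 16 of the 27, all 4 WT HFD libraries lay below all 4 WT chow libraries, against 9.11% of all genes, and for 0 they lay above, against 9.08% of all genes. In HuMgat2 mice HFD gave 3 members higher and 2 lower, with a median of 0.27 against -0.01 over all genes, where 7.56% of all genes were called higher and 6.4% lower. The diets did not overlap for Mylip, higher on HFD (11.6% of all genes), and for Ggps1 and Scap, lower on HFD (9.4% of all genes). On HFD, 19 members were higher in HuMgat2 than in WT livers and 0 lower, with a median of 1.22 against -0.04 over all genes, where 7.21% of all genes were called higher and 7.56% lower. The 4 HuMgat2 libraries lay above all 4 WT libraries for 18 members, against 10.9% of all genes, and below them for Ggps1, against 10.3% of all genes. On chow, 0 members were called higher and 0 lower between the genotypes, with a median of 0.05 against 0.00 over all genes, where 0.266% of all genes were called higher and 0.243% lower. The genotypes did not overlap on chow for 0 members in either direction, against 3.4% of all genes higher and 3.22% lower. The HFD comparisons in WT and between genotypes share the 4 WT HFD libraries, so their counts are not independent. In whole liver, fewer hepatocytes and less of an RNA in each hepatocyte cannot be told apart.

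The counts of 0 were from edgeR. At an unadjusted p below 0.05 there were also 0 members higher with HFD in WT and 0 in either direction between genotypes on chow, and on HFD 2 members, Ggps1 and Scap, had lower levels in HuMgat2 at that p. DESeq2 and limma voom gave 0 for the same counts, except that limma voom called Ggps1 and Scap lower in HuMgat2 on HFD. On chow the 95% intervals of the single members (log2 change ± t quantile times SE) ran at the widest from -1.05 to 0.87 for Sqle and from -0.41 to 1.24 for Mvd, and were narrow for Acat2 (-0.28 to 0.25) and Scap (-0.31 to 0.13).

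Without WT HFD library 4, Sqle (-3.14), Idi1 (-2.92), Cyp51 (-2.24), Nsdhl (-2.03) and Fdps (-1.13) kept their calls with HFD in WT. Leaving out that library gave 16 members lower in WT on HFD, the calls lost being Mvd, Lss and Insig1, and 20 higher in HuMgat2 on HFD, with Lbr added. The WT count was more sensitive to other single libraries, falling to 11 when WT chow library 5 was left out, and to 12 when WT chow library 6 or WT HFD library 2 was left out. The genotype count on HFD stayed between 18 and 20 without any single library. Acat2, Hmgcs1, Pmvk, Idi1, Fdft1, Sqle, Cyp51, Tm7sf2, Msmo1 and Nsdhl were called lower in WT on HFD under all 23 alternative settings.

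**Figure D1:**
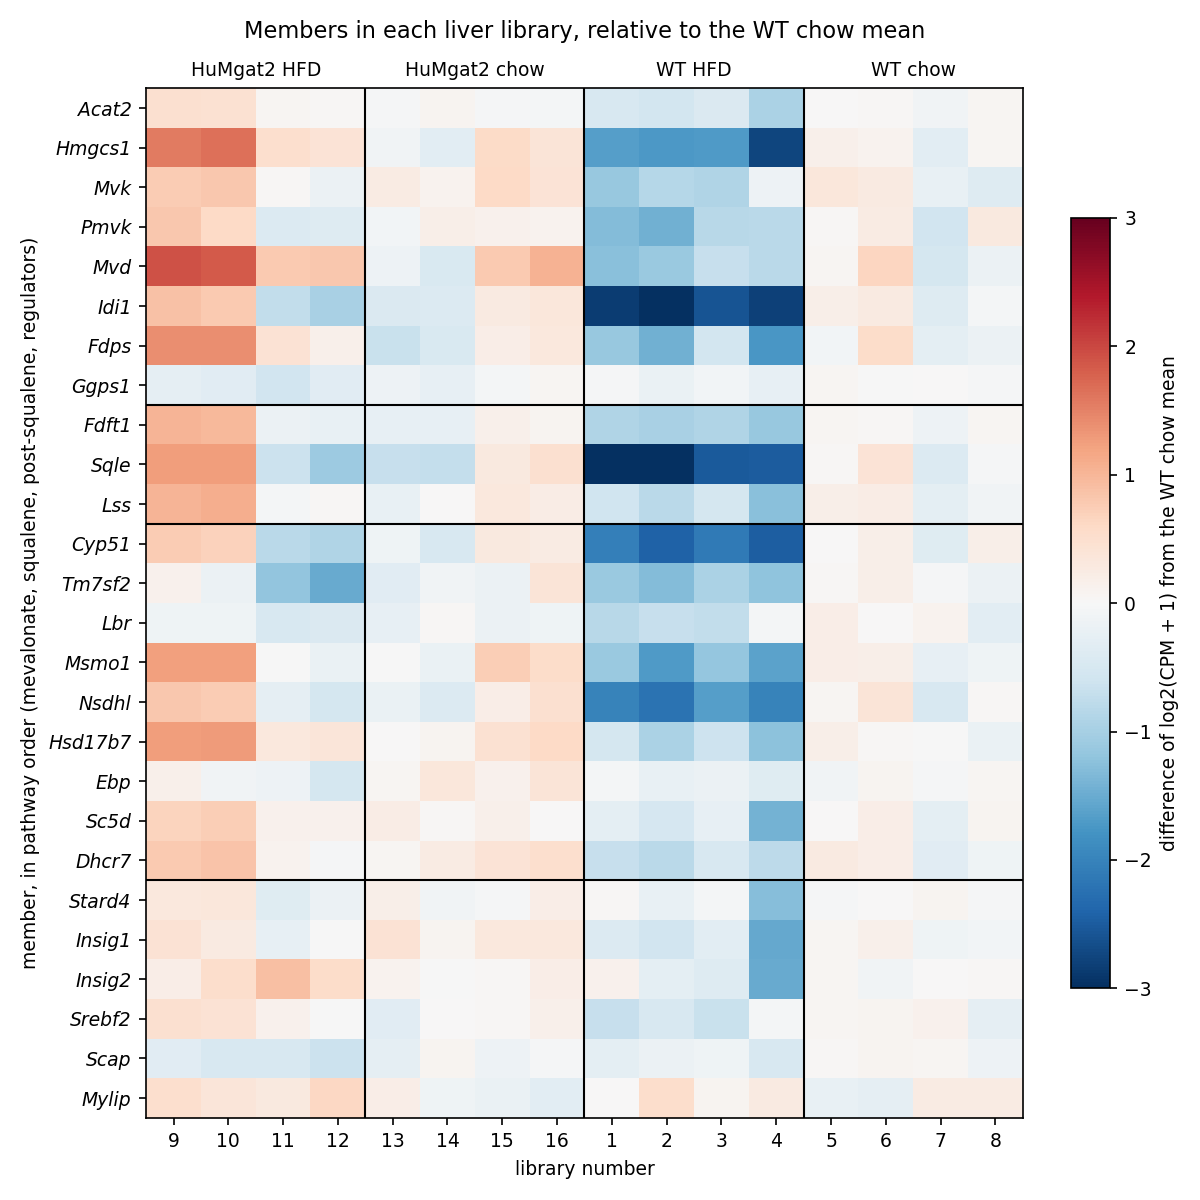
Difference of log2(CPM + 1) from the mean of the 4 WT chow libraries (colour) for the 26 tested members (rows, in pathway order) in each of the 16 libraries (columns, numbered as in the labels). The 4 WT HFD columns are blue in most rows of the first 3 stages, and HuMgat2 HFD libraries 9 and 10 are red in most of them. Libraries 11 and 12 are mixed, above the WT chow mean in rows such as Hmgcs1 and Mvd and below it in rows such as Idi1, Sqle, Cyp51 and Tm7sf2.

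The heat map shows that the low block in WT HFD ran through all enzyme stages, with Ggps1 and Ebp as the palest rows, and was less even among the regulators. Over the 27 members the mean of log2(CPM + 1) was 5.91 ± 0.47 in HuMgat2 on HFD, 5.72 ± 0.19 in HuMgat2 on chow, 4.69 ± 0.16 in WT on HFD and 5.65 ± 0.14 in WT on chow (SD, n = 4 each). By group mean, 23 members were lowest in WT HFD and 0 were highest there, while 19 were highest in HuMgat2 HFD. The exceptions to the lowest place were spread over HuMgat2 HFD (2 members), HuMgat2 chow (1) and WT chow (1). The WT chow exception was Npc1l1, which was not tested and whose place rests on 11 counts in all. Places by group mean were not counted over all genes.

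In the mevalonate stage 7 of 8 genes fell with HFD in WT mice and 7 were higher in HuMgat2 than in WT livers on HFD. Idi1 (GRCm39 chromosome 13, 8935537 to 8942487) encodes the isomerase that interconverts the isoprenoid units isopentenyl and dimethylallyl diphosphate. It stood at 326, 302, 105 and 88.5 CPM in HuMgat2 HFD livers and at 130.5, 133, 213 and 222 CPM in HuMgat2 chow livers. In WT mice it stood at 23.4, 18.8, 28.5 and 24.2 CPM on HFD and at 198, 211, 134 and 170.0 CPM on chow. All 4 WT HFD libraries lay below every other library, and the HuMgat2 HFD libraries lay on both sides of their chow group. The WT diet change was -2.91 ± 0.37 (log2, SE; adjusted p = 1.34e-04), and HuMgat2 exceeded WT on HFD by 3.12 ± 0.37 (adjusted p = 4.65e-05). In HuMgat2 mice the diet change of Idi1 was 0.24 ± 0.34 (adjusted p = 0.705).

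Hmgcs1 (chromosome 13, 120151982 to 120169796), the cytosolic HMG-CoA synthase, stood at 838, 892, 403 and 381 CPM in HuMgat2 HFD livers and at 265, 230.0, 426 and 374 CPM in HuMgat2 chow livers. WT livers had 90.6, 85.9, 87.3 and 41.3 CPM on HFD and 315, 305, 228 and 299 CPM on chow. WT HFD was again below every other library, and library 4 was the lowest of all. The WT diet change was -1.91 ± 0.30 (adjusted p = 7.74e-04), and was -1.71 without library 4. On HFD, HuMgat2 exceeded WT by 3.04 ± 0.32 (adjusted p = 1.34e-05). Hmgcs1 was also among the few members that rose with HFD in HuMgat2 mice (0.96 ± 0.30, adjusted p = 0.0389), although 2 of the 4 HFD libraries lay within the range of the chow libraries, and the call was lost on leaving out any 1 of 7 libraries, among them HuMgat2 HFD libraries 9 and 10.

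Fdps, the farnesyl diphosphate synthase at the branch point between sterols and other isoprenoids, stood at 37.7, 37.8, 18.7 and 15.2 CPM in HuMgat2 HFD livers and at 8.19, 9.67, 15.8 and 17.1 CPM in HuMgat2 chow livers. Its WT levels were 5.66, 4.42, 9.02 and 3.33 CPM on HFD and 12.8, 20.3, 10.9 and 12.0 CPM on chow. It rose with HFD in HuMgat2 mice (1.11 ± 0.34, adjusted p = 0.036) and fell with HFD in WT mice (-1.30 ± 0.35, adjusted p = 0.0211), with overlap of the diets in HuMgat2 and none in WT. The rise in HuMgat2 lost its call without HuMgat2 HFD library 9 or 10 or HuMgat2 chow library 13 or 14, and the fall in WT without WT HFD library 2 or WT chow library 6. Mvd, the mevalonate diphosphate decarboxylase, stood at 27.8, 26.7, 12.4 and 12.5 CPM in HuMgat2 HFD livers, 6.00, 4.59, 12.3 and 14.9 CPM in HuMgat2 chow livers, 2.24, 2.54, 3.80 and 3.41 CPM in WT HFD livers and 6.98, 11.1, 4.39 and 5.83 CPM in WT chow livers. Its genotype difference on HFD was 2.73 ± 0.41 (adjusted p = 3.45e-04), while its WT diet change of -1.24 ± 0.41 had adjusted p = 0.0484 and lost its call on leaving out any 1 of 9 of the 16 libraries.

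The other mevalonate enzymes had smaller changes. Pmvk, the phosphomevalonate kinase, fell by 1.20 in WT on HFD and was higher by 1.43 in HuMgat2 on HFD. Mvk, the mevalonate kinase, fell by 0.87 in WT and was higher by 1.29 in HuMgat2 on HFD. Library 4 had 9.04 CPM of Mvk, against 4.10 to 5.13 CPM in the other WT HFD libraries, and without it the WT change was -1.14. The WT call of Mvk was lost on leaving out any 1 of 6 libraries (WT HFD library 1, 2 or 3 or WT chow library 5, 6 or 7). Acat2, the cytosolic thiolase that makes acetoacetyl-CoA, fell by 0.60 in WT and was higher by 0.87 in HuMgat2 on HFD. Ggps1, which makes geranylgeranyl diphosphate for protein prenylation and so lies on a side branch, was not called in any comparison with all libraries in edgeR. Without HuMgat2 chow library 14, and by limma voom, it was called lower with HFD in HuMgat2. Its levels were 7.18 to 9.07 CPM in HuMgat2 HFD, 9.18 to 11.6 CPM in HuMgat2 chow, 9.20 to 10.9 CPM in WT HFD and 10.9 to 11.6 CPM in WT chow, so that the 4 HuMgat2 HFD libraries lay below all others.

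**Figure D2:**
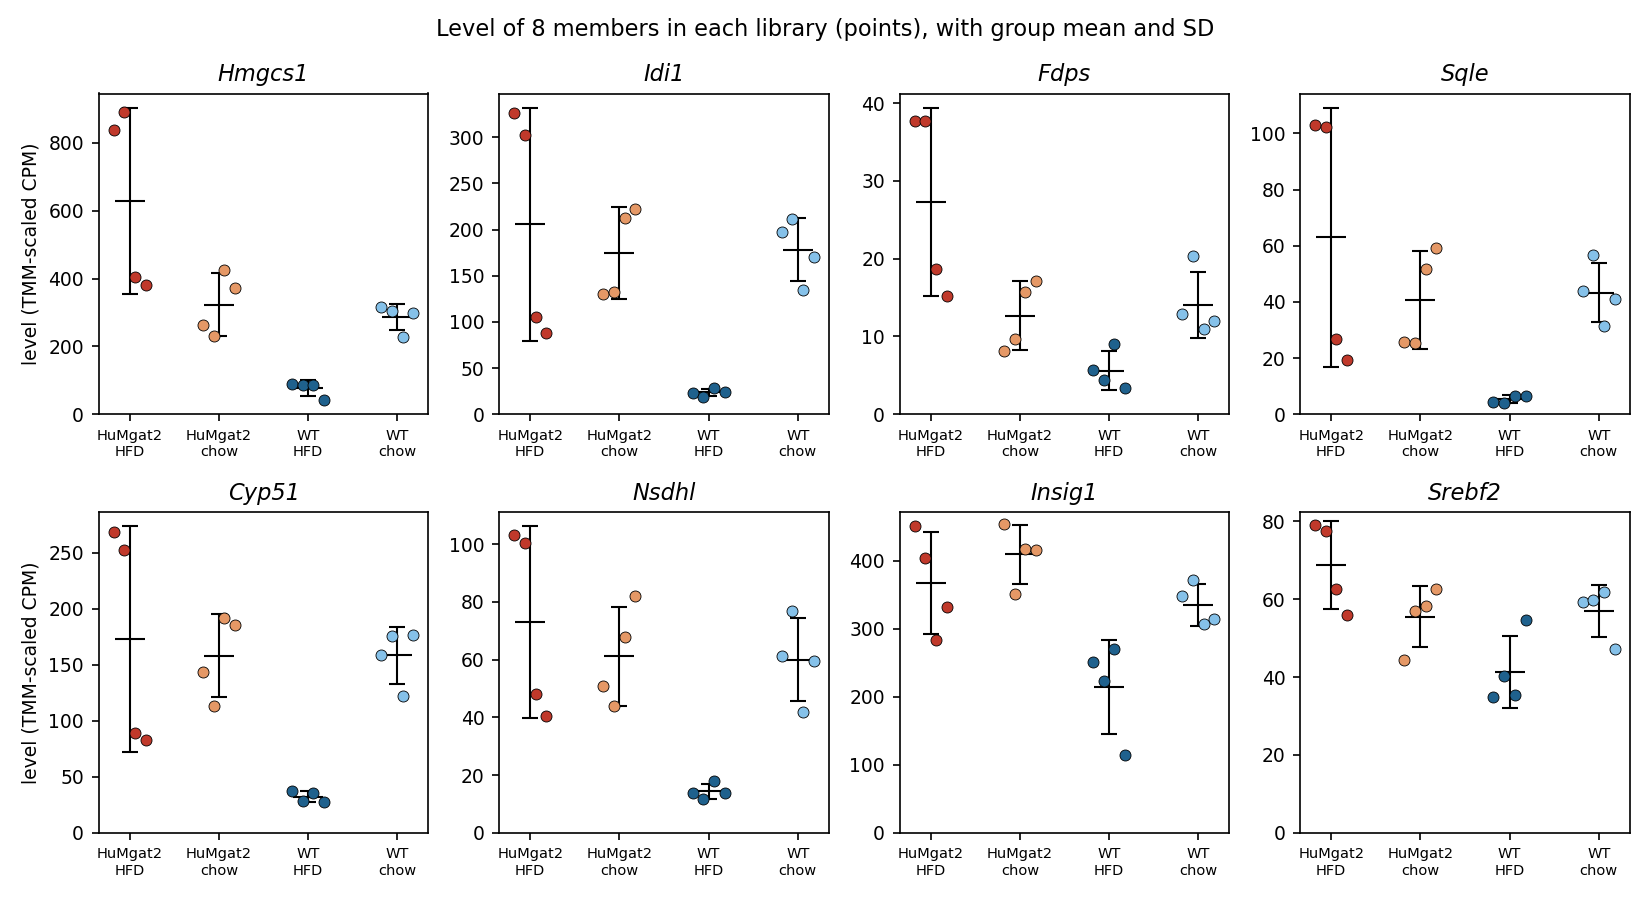
TMM-scaled CPM of 8 members in each library (points, 4 per group in the order of the library numbers), with the group mean and SD (bars). WT HFD points lie at the bottom of every panel except that single libraries overlap other groups in Fdps and Srebf2. The HuMgat2 HFD points of the enzymes split into a higher and a lower pair.

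All 3 squalene-stage genes fell with HFD in WT mice and were higher in HuMgat2 than in WT livers on HFD. Sqle (chromosome 15, 59186926 to 59203041), the squalene epoxidase and a slow, regulated step of the pathway, showed the largest changes of any member with HFD in WT and between genotypes on HFD. It stood at 103, 102, 27.0 and 19.4 CPM in HuMgat2 HFD livers and at 25.9, 25.5, 51.8 and 59.2 CPM in HuMgat2 chow livers. WT livers held 4.25, 3.88, 6.60 and 6.66 CPM on HFD and 43.8, 56.8, 31.6 and 41.0 CPM on chow. The WT HFD libraries were the lowest 4 of the 16, and HuMgat2 libraries of the 2 diets overlapped. The WT change was -3.03 ± 0.50 (adjusted p = 9.50e-04), an 8.17-fold lower level on HFD. On HFD HuMgat2 was 11.9-fold higher than WT (log2 3.57 ± 0.50, adjusted p = 2.30e-04). In HuMgat2 mice the diet change of 0.63 ± 0.44 was not called (adjusted p = 0.381).

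Fdft1, the squalene synthase, stood at 153, 149, 66.4 and 64.6 CPM in HuMgat2 HFD livers and at 62.8, 62.9, 84.1 and 80.0 CPM in HuMgat2 chow livers. Its levels in WT mice were 39.5, 38.1, 40.1 and 33.6 CPM on HFD and 78.1, 76.9, 67.7 and 79.1 CPM on chow, with no overlap between the WT diets. It fell by 0.99 ± 0.23 in WT on HFD (adjusted p = 0.00952) and was higher by 1.51 ± 0.23 in HuMgat2 on HFD (adjusted p = 5.09e-04). Lss, which closes the sterol ring system to give lanosterol, stood at 83.2, 87.2, 39.2 and 41.9 CPM in HuMgat2 HFD livers, 34.9, 41.4, 51.3 and 47.7 CPM in HuMgat2 chow livers, 26.8, 22.7, 28.2 and 16.4 CPM in WT HFD livers and 46.3, 47.6, 33.0 and 37.9 CPM in WT chow livers. It fell by 0.80 ± 0.24 in WT on HFD (adjusted p = 0.0356), a call lost on leaving out any 1 of 5 libraries (WT HFD library 2 or 4 or WT chow library 5, 6 or 8).

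Of the 9 genes that turn lanosterol into cholesterol, 7 fell with HFD in WT mice and 6 were higher in HuMgat2 than in WT livers on HFD. Cyp51 (chromosome 5, 4131145 to 4154746), the cytochrome P450 that removes a methyl group from lanosterol, stood at 268, 252, 89.3 and 83.1 CPM in HuMgat2 HFD livers and at 143, 113, 192 and 185 CPM in HuMgat2 chow livers. In WT mice it stood at 37.0, 28.2, 35.4 and 27.4 CPM on HFD and at 159, 176, 122 and 177 CPM on chow. WT HFD lay below every other library. The WT diet change was -2.31 ± 0.33 (adjusted p = 3.56e-04), and HuMgat2 exceeded WT on HFD by 2.44 ± 0.33 (adjusted p = 1.60e-04).

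Nsdhl (chromosome X, 71962163 to 72002120), a sterol dehydrogenase of the demethylation complex, stood at 103, 100.5, 48.1 and 40.5 CPM in HuMgat2 HFD livers and at 51.0, 43.8, 67.8 and 82.0 CPM in HuMgat2 chow livers. WT livers had 13.9, 11.8, 18.1 and 13.9 CPM on HFD and 61.3, 77.0, 41.8 and 59.6 CPM on chow. The pattern over the 4 groups was that of Cyp51, with a WT diet change of -2.05 ± 0.30 (adjusted p = 3.89e-04) and a genotype difference on HFD of 2.34 ± 0.30 (adjusted p = 9.32e-05). Msmo1, the methylsterol oxidase that acts in the same complex, stood at 228, 228, 96.1 and 83.2 CPM in HuMgat2 HFD livers, 95.3, 84.1, 162 and 142 CPM in HuMgat2 chow livers, 44.1, 28.9, 42.3 and 31.1 CPM in WT HFD livers and 111, 109, 80.6 and 87.8 CPM in WT chow livers. It fell by 1.41 ± 0.31 in WT on HFD (adjusted p = 0.00601).

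Hsd17b7, the ketoreductase of that complex, stood at 138, 141, 71.9 and 73.9 CPM in HuMgat2 HFD livers, 57.4, 60.9, 79.1 and 87.7 CPM in HuMgat2 chow livers, 39.2, 29.4, 36.6 and 23.9 CPM in WT HFD livers and 64.6, 58.7, 56.7 and 50.0 CPM in WT chow livers. It fell by 0.83 ± 0.22 in WT on HFD (adjusted p = 0.0199) and was higher by 1.71 ± 0.23 in HuMgat2 on HFD (adjusted p = 1.22e-04). Dhcr7, the reductase of a last step to cholesterol, fell by 0.72 in WT and was higher by 1.18 in HuMgat2 on HFD.

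The sterol reductases Tm7sf2 and Lbr, which catalyse the same step, fell in WT on HFD without a called genotype difference. Tm7sf2 stood at 64.2, 51.3, 25.1 and 19.9 CPM in HuMgat2 HFD livers and at 45.5, 53.9, 51.5 and 76.5 CPM in HuMgat2 chow livers. Its WT levels were 26.3, 23.2, 29.5 and 24.8 CPM on HFD and 59.6, 66.3, 56.9 and 51.3 CPM on chow. HuMgat2 HFD libraries 11 and 12 thus lay among or below the WT HFD libraries for Tm7sf2. Its WT diet change was -1.17 ± 0.28 (adjusted p = 0.00971), and its genotype difference on HFD was 0.63 ± 0.27 (adjusted p = 0.13), called without HuMgat2 HFD library 12. Lbr, which is also the lamin B receptor of the nuclear envelope, stood at 6.64, 7.54 and 7.24 CPM in WT HFD libraries 1 to 3 and at 12.2 CPM in library 4, against 9.98 to 14.8 CPM in WT chow. Its WT diet change of -0.62 was -0.84 without library 4, and without that library Lbr was also called higher in HuMgat2 on HFD. The WT call was lost when WT HFD library 1, 2 or 3 or WT chow library 5 or 7 was left out, and with only the groups compared.

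Sc5d and Ebp, the desaturase and the isomerase of the late steps, were not called with HFD in WT mice. Sc5d stood at 874, 923, 604 and 602 CPM in HuMgat2 HFD livers against 449, 387, 463 and 205 CPM in WT HFD livers, and was higher by 1.00 ± 0.22 in HuMgat2 (adjusted p = 0.00581). Its WT diet change of -0.56 ± 0.21 had adjusted p = 0.0901, and it was -0.36 without library 4. Ebp stood at 115, 96.5, 92.4 and 71.0 CPM in HuMgat2 HFD livers and at 108, 131, 113 and 135 CPM in HuMgat2 chow livers, and fell by 0.38 ± 0.12 there (adjusted p = 0.0495), a call lost on leaving out any 1 of 13 of the 16 libraries. In WT mice Ebp stood at 80.5 to 98.9 CPM on HFD and at 96.4 to 109 CPM on chow.

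Among the regulators the differences were smaller, and 2 of 7 fell with HFD in WT mice. Srebf2 (chromosome 15, 82031382 to 82089580), the gene of SREBP2 itself and a target of its own protein, stood at 78.9, 77.4, 62.6 and 55.9 CPM in HuMgat2 HFD livers and at 44.3, 57.0, 58.1 and 62.7 CPM in HuMgat2 chow livers. WT livers held 34.9, 40.3, 35.4 and 54.5 CPM on HFD and 59.3, 59.7, 62.0 and 47.2 CPM on chow. WT HFD library 4 overlapped the chow group, and every HuMgat2 HFD library was above every WT HFD library. HuMgat2 exceeded WT on HFD by 0.74 ± 0.15 (adjusted p = 0.00473). The WT diet change was -0.47 ± 0.15 (adjusted p = 0.0498), lost on leaving out any 1 of 12 of the 16 libraries, while without library 4 it was -0.63 (adjusted p = 0.00571).

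Insig1, a target of SREBP2 whose product holds SCAP back, stood at 451, 404, 283 and 332 CPM in HuMgat2 HFD livers and at 454, 350.5, 416 and 416 CPM in HuMgat2 chow livers. Its levels in WT mice were 250.4, 223, 270.0 and 115 CPM on HFD and 347, 371, 307 and 314 CPM on chow. All WT HFD libraries lay below all others, the lowest by a wide margin being library 4. The WT diet change was -0.64 ± 0.21 (adjusted p = 0.0458), and -0.43 without library 4 (adjusted p = 0.0526), and the call was lost on leaving out any 1 of 11 of the 16 libraries. HuMgat2 exceeded WT on HFD by 0.77 ± 0.21 (adjusted p = 0.0197), a call lost without HuMgat2 HFD library 9 or 10.

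Insig2, the other INSIG gene, whose liver transcript is known to be repressed by insulin, stood at 114, 144, 187 and 146 CPM in HuMgat2 HFD livers, against 107, 98.7, 102 and 115 CPM in HuMgat2 chow. In WT mice it stood at 108, 81.8, 75.9 and 34.4 CPM on HFD and at 104, 92.8, 100.1 and 102 CPM on chow. It was higher by 0.97 ± 0.23 in HuMgat2 on HFD (adjusted p = 0.0096), and by 0.74 without WT HFD library 4, which was far below the others of its group. Within HuMgat2 HFD, library 9 was the lowest and library 11 the highest. Without WT HFD library 4 its diet change in HuMgat2 mice was 0.49 ± 0.13 and was called (adjusted p = 0.0136), against 0.48 ± 0.23 with all libraries.

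Scap stood at 71.5, 64.3, 64.6 and 57.1 CPM in HuMgat2 HFD livers and at 74.8, 96.5, 80.8 and 89.0 CPM in HuMgat2 chow livers, with no overlap. It fell by 0.41 ± 0.10 with HFD in HuMgat2 mice (adjusted p = 0.014). Scap stood at 73.2, 79.6, 82.8 and 64.3 CPM on HFD and at 92.1, 95.1, 93.9 and 81.5 CPM on chow in WT mice and was not called (adjusted p = 0.0835). Mylip, a ubiquitin ligase that degrades lipoprotein receptors and is induced by liver X receptors, stood at 15.2, 13.7, 13.0 and 16.4 CPM in HuMgat2 HFD livers and at 12.1, 9.37, 8.85 and 8.04 CPM in HuMgat2 chow livers. It rose by 0.61 ± 0.16 there (adjusted p = 0.0194), while in WT mice (10.4 to 15.3 CPM on HFD, 8.46 to 12.4 CPM on chow) the change of 0.23 was not called. Stard4, a soluble sterol carrier, was not called in any comparison, at 153, 156, 96.2 and 109 CPM in HuMgat2 HFD, 115 to 141 CPM in HuMgat2 chow, 125, 106, 118 and 50.6 CPM in WT HFD and 119 to 129.8 CPM in WT chow.

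**Figure D3:**
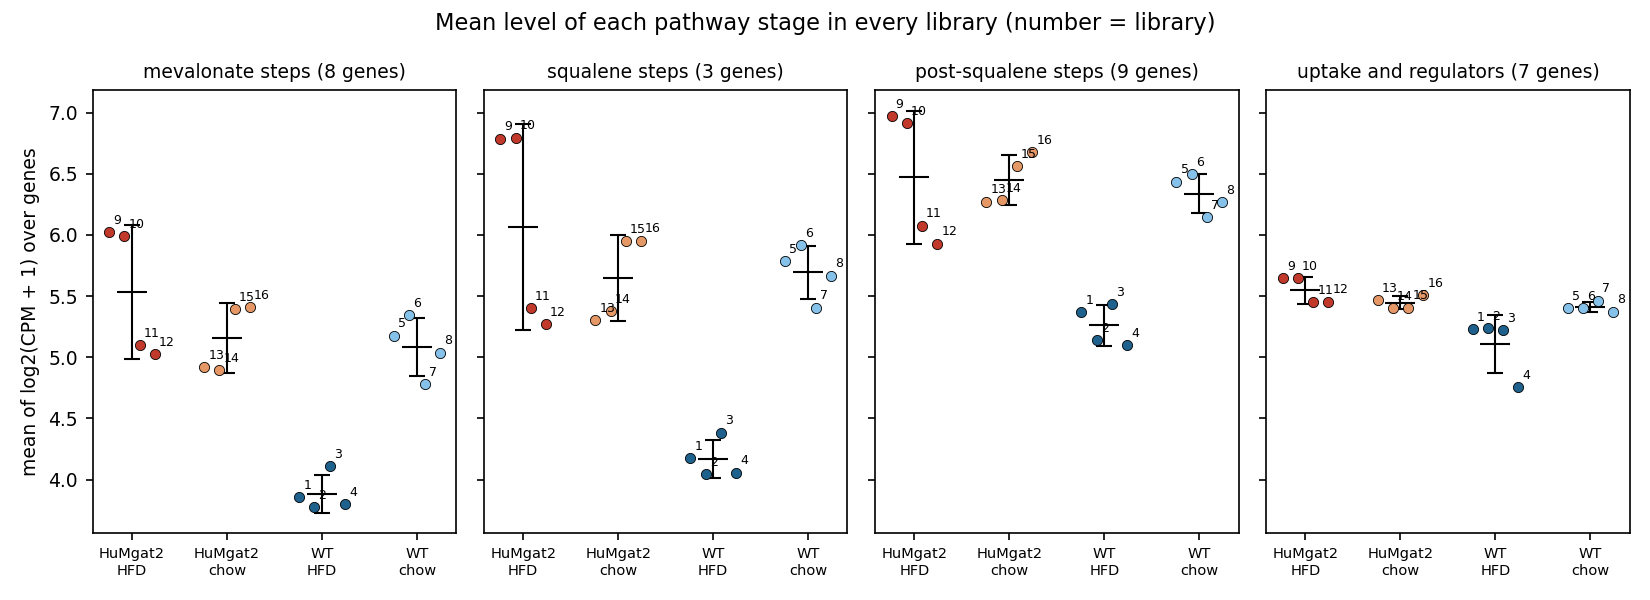
Mean of log2(CPM + 1) over the genes of each pathway stage in every library (points, numbered by library), with the group mean and SD (bars). The lowest group is WT HFD in all 4 panels, and in HuMgat2 HFD libraries 9 and 10 lie above libraries 11 and 12 in each panel.

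Over the 26 tested members the HuMgat2 HFD group was the most uneven. The coefficient of variation between its 4 libraries had a median of 35.9% over the 26 tested members, against 15.8% in HuMgat2 chow, 21.9% in WT HFD and 14.8% in WT chow. Over all genes tested, the median rank correlation of a library with its own group was 0.987 to 0.990 in HuMgat2 HFD and 0.978 to 0.982 in HuMgat2 chow. It was 0.954 to 0.986 in WT HFD and 0.983 to 0.987 in WT chow. Libraries 9 and 10 held the top pair of values for 22 of the 26 members, and over all 27 members their mean log2(CPM + 1) was 6.33 and 6.30, against 5.55 and 5.47 in libraries 11 and 12. Top pairs and coefficients of variation were not counted over all genes. The lower pair still lay above the 4 WT HFD libraries, whose means were 4.51 to 4.87. HuMgat2 chow libraries 13 to 16 had means of 5.553, 5.543, 5.848 and 5.917. Library 12 (5.465) thus lay below every HuMgat2 chow library, and library 11 (5.549) lay above library 14 alone. In HuMgat2 chow, libraries 15 and 16 were the top pair for 15 members. The most frequent top pairs in WT mice were libraries 1 and 3 on HFD (16 members) and libraries 5 and 6 on chow (13 members). The diet result in HuMgat2 mice moved with single libraries. The count of members higher with HFD was 1 when library 9 or 10, or HuMgat2 chow library 13 or 14, was left out. It was 6 when library 11 was left out and 5 when WT HFD library 4 was. The count lower was between 0 and 3 when any single library was left out, and 0 without library 12. The depth of the 4 HuMgat2 HFD libraries was 22.9, 21.6, 21.0 and 19.7 M read pairs, and their summed hepatocyte markers were 58876, 51994, 48454 and 47147 CPM. Both are also highest in library 9 and lowest in library 12, and their part in the spread was not tested.

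The diet effect itself differed between the genotypes, in the test of the difference (interaction), for 14 members, all in the direction of a higher HFD level in HuMgat2. Of all genes 2.61% were called in that direction, 2.26% in the other and 4.87% in either. No member was called in the other direction, and 0 had an unadjusted p below 0.05 there (0 by DESeq2 and limma voom also). The median over the 27 members was 0.93, against -0.05 over all genes. By stage the calls were 6 of 8 mevalonate genes, 3 of 3 squalene genes, 4 of 9 later genes and 1 of 7 regulators, and the stage medians were 1.89, 1.61, 0.93 and 0.42. The differences were 3.66 ± 0.66 for Sqle (adjusted p = 0.00394), 3.15 ± 0.49 for Idi1 (adjusted p = 0.0015), 2.87 ± 0.42 for Hmgcs1 (adjusted p = 9.30e-04) and 2.44 ± 0.45 for Cyp51 (adjusted p = 0.00455). Fdps (2.40), Mvd (2.31), Nsdhl (2.31), Msmo1 (1.80), Fdft1 (1.57), Hsd17b7 (1.40), Pmvk (1.38), Lss (1.32) and Acat2 (0.88) were also called. The call of Pmvk was lost on leaving out any 1 of 11 of the 16 libraries and that of Lss any 1 of 8, while Acat2, Hmgcs1, Idi1, Fdps, Fdft1, Sqle, Cyp51, Nsdhl and Hsd17b7 lost theirs in no setting. For Srebf2 the difference was 0.78 ± 0.22 with adjusted p = 0.05 after rounding, just under the threshold, and the call was lost on leaving out any 1 of 12 of the 16 libraries. The number of members called was 9 without HuMgat2 HFD library 10, where Pmvk, Mvd, Lss, Msmo1 and Srebf2 were lost, and 16 without WT HFD library 4, where Mvk and Lbr were added.

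**Figure D4:**
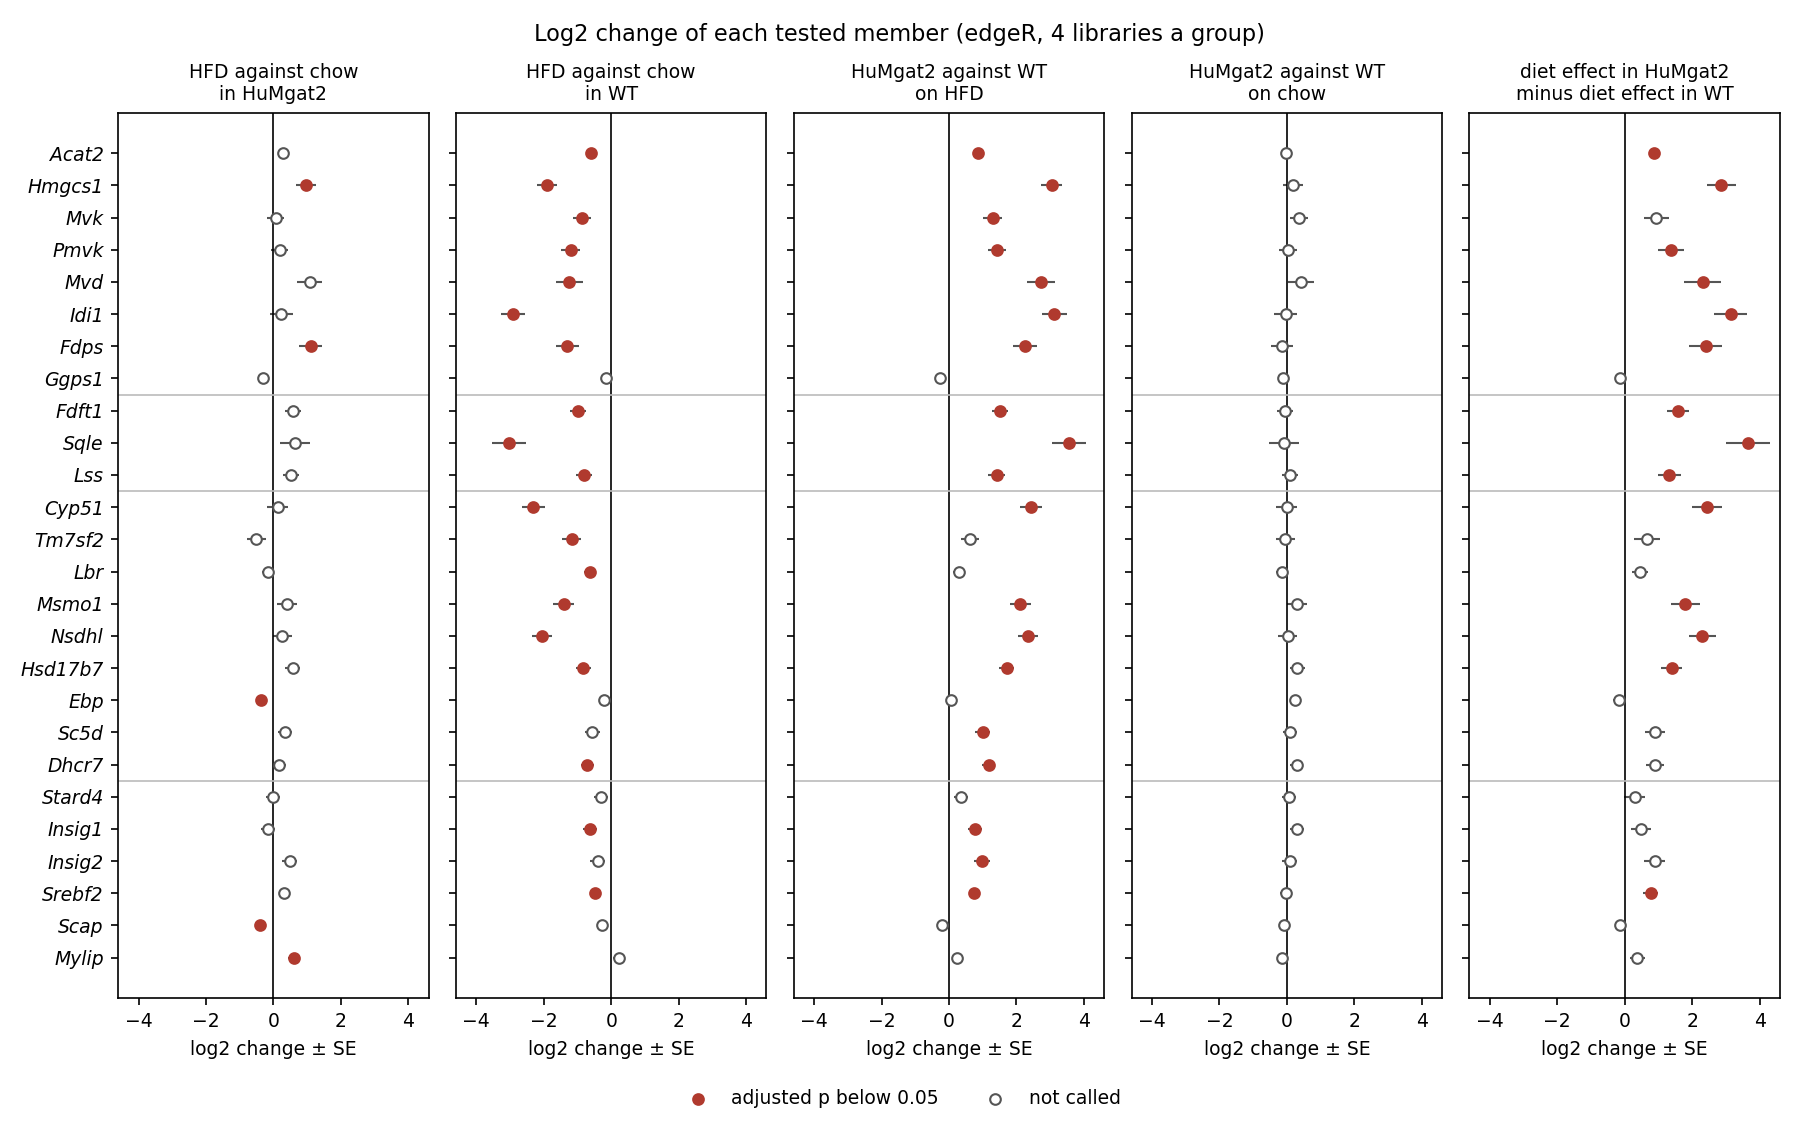
Log2 change and SE (points and bars) of the 26 tested members in the 4 comparisons and in the difference of diet effects, in pathway order, with filled points for adjusted p below 0.05. The WT diet panel lies left of 0 for all members but Mylip, the HFD genotype panel lies right of 0 for all but Ggps1 and Scap, and the chow genotype panel stays near 0.

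Per kb of exon the members spanned a wide range of levels. Averaged over the 16 libraries, Sc5d (117 CPM per kb), Insig1 (107) and Hmgcs1 (74.3) were the most abundant and Ggps1 (2.22), Lbr (2.50) and Fdps (3.58) the least abundant of the tested members. Sqle held 11.3 CPM per kb in HuMgat2 HFD and 0.964 in WT HFD. The order of levels was not fixed across groups: per kb, Hmgcs1 was above Insig1 in HuMgat2 HFD (142 against 119) and below it in WT HFD (17.2 against 69.4).

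Near copies limit some of these counts. The pseudogene Idi1-ps1 held 0.262 to 0.312 counts for each count of Idi1 in every library and had nearly the same changes (-2.97 with HFD in WT, 3.11 in HuMgat2 on HFD), so its counts may be Idi1 reads, or the reverse, and the level of Idi1 is uncertain by that share. Idi1-ps2 stood at 3.00 to 11.9 CPM over the 16 libraries with no called change, which was 0.0206 to 0.0529 counts per Idi1 count in HuMgat2 HFD, 0.0187 to 0.0376 in HuMgat2 chow, 0.177 to 0.591 in WT HFD and 0.021 to 0.0671 in WT chow. Its share was thus highest where Idi1 was lowest. Idi2 had at most 0.296 CPM in any library. Acat3, a near relative of Acat2, had 0.943 to 1.61 counts per Acat2 count and smaller changes, at -0.54 with HFD in WT and 0.46 in HuMgat2 on HFD. Processed copies of Fdps are known in rodents, so its level is also uncertain.

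Genes on the non-sterol branches of the pathway, which make dolichol, ubiquinone and prenyl groups, were counted beside the members. Of 14 genes 1 rose (the farnesyltransferase subunit Fntb, 0.94) and 3 fell (Rabggtb, Fnta and Pdss2, -0.45 to -0.31) with HFD in WT, against 8.37% of all genes higher and 6.74% lower. With HFD in HuMgat2 and between genotypes on chow 0 were called, and 3 were higher in HuMgat2 on HFD (Icmt, Fnta and Nus1, 0.31 to 0.36), against 7.21% of all genes. Without WT HFD library 4, 1 rose and 2 fell with HFD in WT and 1 (Fntb) was called on chow. Their median changes were 0.09 with HFD in WT and 0.13 between genotypes on HFD.

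Of 14 further genes known as SREBP2-regulated or as partners of the sterol enzymes, 5 fell and 3 rose with HFD in WT, and 7 were higher and 1 lower in HuMgat2 on HFD. Over all genes 6.74% fell and 8.37% rose in the first of these and 7.21% were higher and 7.56% lower in the second. Without WT HFD library 4, 2 fell and 3 rose with HFD in WT and 5 were higher in HuMgat2 on HFD. Faxdc2, also on that list, was not analysed here. Rdh11, a retinal reductase, had the pattern of the sterol enzymes, at 72.2, 69.6, 35.9 and 30.0 CPM in HuMgat2 HFD livers and 38.6, 49.7, 45.9 and 43.4 CPM in HuMgat2 chow livers. Its WT levels were 16.0, 13.4, 20.8 and 12.3 CPM on HFD and 39.3, 52.3, 29.1 and 47.1 CPM on chow. Its diet effect differed between the genotypes by 1.64 ± 0.36 (adjusted p = 0.0148). Por, the reductase that supplies electrons to Cyp51 and Sqle and to every microsomal cytochrome P450, went the other way, at 187 to 263 CPM in HuMgat2 HFD, 212 to 324 CPM in HuMgat2 chow, 474 to 552 CPM in WT HFD and 163 to 225 CPM in WT chow. The WT HFD libraries were all above the other 12, and the diet effects differed by -1.53 ± 0.22 (adjusted p = 7.85e-04). With HFD in HuMgat2 mice 5 of the 14 rose and 0 fell (7.56% and 6.4% of all genes), among them Aacs (2.02), which activates acetoacetate, the fatty acid desaturase Fads2 (1.21) and Acly (1.20), which makes cytosolic acetyl-CoA. Fads2 rose with HFD in WT as well (1.41, and 1.69 without library 4).

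Srebf1, which encodes the SREBP1 proteins that drive fatty acid synthesis, moved opposite to Srebf2 in WT mice. It stood at 207, 248, 308 and 332 CPM in HuMgat2 HFD livers and at 169, 232, 171 and 122 CPM in HuMgat2 chow livers. WT livers held 479.8, 640.3, 599.7 and 295 CPM on HFD and 206, 198, 186 and 176 CPM on chow. It rose by 1.40 ± 0.22 with HFD in WT (adjusted p = 8.11e-04) and was lower by 0.88 ± 0.22 in HuMgat2 on HFD (adjusted p = 0.0145). Without library 4, whose level was the lowest of its group, the changes were 1.58 and -1.07. Of the other 11 genes of SREBP processing and sterol-regulated degradation, Rnf139 fell with HFD in both genotypes (-0.38 in WT and -0.31 in HuMgat2) and Rnf145 was lower in HuMgat2 on HFD (-0.66). Over all genes 6.74% fell with HFD in WT and 6.4% in HuMgat2, and 7.56% were lower in HuMgat2 on HFD. Counts of 1 among the 12 genes, Srebf1 included, were close to these shares. Without WT HFD library 4, 2 of the 12 rose and 1 fell with HFD in WT, and 1 rose and 1 fell in HuMgat2. The Golgi proteases Mbtps1 and Mbtps2 were not called in any comparison.

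Of 16 genes of cholesterol esterification and intracellular transfer, 5 rose and 1 fell with HFD in WT, 2 rose and 1 fell with HFD in HuMgat2, and 1 was higher and 3 were lower in HuMgat2 on HFD. Over all genes 8.37% rose and 6.74% fell with HFD in WT, 7.56% rose and 6.4% fell with HFD in HuMgat2, and 7.21% were higher and 7.56% lower in HuMgat2 on HFD, so that counts of 1 among 16 were close to these shares. Without WT HFD library 4 the WT count was 3 higher and 1 lower. Soat2, the sterol acyltransferase of hepatocytes, fell by 0.68 with HFD in WT and was the single gene of these lists called between genotypes on chow, where it was lower by 0.57 in HuMgat2 (adjusted p = 0.0123). Scarb1, the receptor for sterol uptake from high-density lipoprotein, stood at 61.1 to 78.4 CPM in HuMgat2 HFD livers, 80.0 to 101 CPM in HuMgat2 chow, 129 to 159.9 CPM in WT HFD and 86.8 to 135 CPM in WT chow. It was lower by 1.09 ± 0.13 in HuMgat2 on HFD (adjusted p = 4.63e-05), with no overlap.

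Clock genes set a daily rhythm of sterol synthesis. Of 15 clock genes 7 rose and 4 fell with HFD in WT, 3 rose and 2 fell with HFD in HuMgat2, 0 differed between genotypes on chow, 3 were higher and 3 lower in HuMgat2 on HFD, and the diet effects differed for Npas2 (3.85) and Per3 (-1.06). The shares over all genes were 8.37% higher and 6.74% lower with HFD in WT, 7.56% and 6.4% with HFD in HuMgat2, and 7.21% and 7.56% between genotypes on HFD. They were 0.266% and 0.243% between genotypes on chow, and 2.61% and 2.26% for the difference of diet effects. Without WT HFD library 4 the count with HFD in HuMgat2 was 5 higher and 4 lower. Between genotypes on HFD it was then 3 higher and 4 lower, and for the difference of diet effects 2 higher and 3 lower. Arntl, which encodes BMAL1, stood at 5.33, 3.49, 7.60 and 2.19 CPM in HuMgat2 HFD livers and at 11.4, 9.40, 8.90 and 7.02 CPM in HuMgat2 chow livers. Its levels in WT mice were 1.32, 1.79, 1.09 and 3.96 CPM on HFD and 10.3, 9.52, 5.75 and 8.15 CPM on chow. Npas2 stood at 1.91, 1.11, 3.23 and 0.448 CPM in HuMgat2 HFD livers and at 0.0417 to 0.238 CPM in WT HFD livers. Within HuMgat2 HFD, Arntl and Npas2 were highest in library 11 and lowest in library 12. Collection time is not labelled, so it cannot be told apart from diet or genotype, and the part of the clock genes in the sterol results was not tested.

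Marker levels of some cell types differed between the groups, and those of endothelial cells differed little. The 5 endothelial markers summed to 230 to 243 CPM in HuMgat2 HFD, 189 to 217 CPM in HuMgat2 chow, 200 to 226 CPM in WT HFD and 200 to 228 CPM in WT chow. Cholangiocyte and neutrophil markers had their highest sums in WT HFD library 4 (75.0 and 9.35 CPM). The 7 macrophage markers summed to 210.1 to 270.3 CPM in HuMgat2 HFD, 159 to 196 CPM in HuMgat2 chow, 219 to 793 CPM in WT HFD and 125 to 205 CPM in WT chow, and 5 of the 7 rose with HFD in WT, or 3 without library 4 (8.37% of all genes rose). The 5 lymphocyte markers summed to 2.40 to 2.87 CPM in HuMgat2 HFD, 2.69 to 4.45 CPM in HuMgat2 chow, 3.97 to 15.9 CPM in WT HFD and 3.60 to 4.64 CPM in WT chow. The hepatocyte markers summed to 47147 to 58876 CPM in HuMgat2 HFD, 49108 to 73299 CPM in HuMgat2 chow, 21901 to 54356 CPM in WT HFD and 59450 to 72784 CPM in WT chow. Alb made up most of the hepatocyte sum in every library except WT HFD library 4. Cps1, the urea cycle enzyme on the same list, stood at 1534 to 2068 CPM in HuMgat2 HFD, 4227 to 5109 CPM in HuMgat2 chow, 3019 to 4591 CPM in WT HFD and 3761 to 4329 CPM in WT chow. Between genotypes on HFD, 2 of the 5 hepatocyte markers were called lower in HuMgat2 and 0 higher (7.56% and 7.21% of all genes). By sign of the change 3 were lower and 2 higher. The HuMgat2 HFD libraries lay wholly below WT HFD for 3 of them and wholly above for 1 (10.3% and 10.9% of all genes). The 6 stellate cell and fibroblast markers summed to 374 to 441 CPM in HuMgat2 HFD, 179 to 297 CPM in HuMgat2 chow, 263 to 354 CPM in WT HFD and 201 to 268 CPM in WT chow. Of these 6, 5 rose with HFD in HuMgat2 (7.56% of all genes rose). The part of these cells in the sterol results was not tested beyond the values without library 4.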

How the data were processed

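The deposited table holds raw read-pair counts per gene name, made by the authors with featureCounts 2.0.1 on GRCm39 with Ensembl 103 annotation, per the file headers. The command there names no strand option and none for reads that match several places. Reads were aligned with STAR 2.7 to mm39, and DESeq2 1.26.0 is named, per the submitters' processing notes. The exon length of each gene in bases is deposited beside the counts (a length, not a score of expression) and was used only for levels per kb. Per the labels, 15 mg of liver gave ribosome-depleted, stranded libraries from RNA with an integrity number above 7. The 64 records are 4 per library, so each of the 16 libraries was used once.

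The 4 groups were fitted together with edgeR 4.0.16 in R 4.3.3 (quasi-likelihood test, two-sided, TMM scaling, filterByExpr, Benjamini-Hochberg over 17318 genes). The SE is the log2 change divided by the square root of F. Medians over all members of a list come from the same fit with no filter on low counts. The biological coefficient of variation was 0.197. The test was checked on simulated counts. Alternatives were DESeq2 1.42.0, its size factors, other filters, only the groups compared, a table from which hemoglobin, rRNA and mitochondrial genes were taken out, limma 3.58.1 voom with sample weights, and leaving out each library. The members and lists were chosen with earlier results of these data known. Values per library are given for up to 4 called members a stage with the largest changes and for the regulators, and up to 3 called genes are named per further list and comparison. Counting error is small at 12.4 to 25.8 M counts a library except for genes with few counts.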

Additional observations from a re-analysis of the deposited data

Results flagged for a closer look

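The diet effect differed between the genotypes, by the test of the difference itself, for 14 members. The diet effect in HuMgat2 minus that in WT was, on the log2 scale, 3.66 for Sqle, 3.15 for Idi1, 2.87 for Hmgcs1, 2.44 for Cyp51, 2.40 for Fdps, 2.31 for Mvd, 2.31 for Nsdhl, 1.80 for Msmo1, 1.57 for Fdft1, 1.40 for Hsd17b7, 1.38 for Pmvk, 1.32 for Lss, 0.88 for Acat2 and 0.78 for Srebf2.

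Single libraries stood far from the rest of their group in 2 of 108 sets of 4 values examined (26 members and their mean level, in 4 groups), where chance gives about 5% of sets. Both were in WT HFD library 4. Hmgcs1 was at 41.3 CPM there, against 85.9 to 90.6 CPM in the other WT HFD libraries, and Lbr was at 12.2 CPM, against 6.64 to 7.54 CPM.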

How the results depend on the processing

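None of the members' called changes reversed under any alternative. With HFD in HuMgat2 mice, 1 member (Scap) was lower with no filter on low counts, with a mean of at least 1 CPM, and with only the groups compared, where Ebp lost its call. With limma voom 2 members (Ggps1 and Scap) were lower in HuMgat2 on HFD. Members lower with HFD in WT numbered 21 with DESeq2 (Sc5d and Scap added), 16 with limma voom and 15 with only the groups compared, where those higher in HuMgat2 on HFD numbered 17 (Insig1 and Insig2 lost). Leaving out each library in turn gave 11 to 18 members lower and 0 higher with HFD in WT (median change -0.89 to -0.74), 0 to 3 lower and 1 to 6 higher with HFD in HuMgat2 (median 0.05 to 0.40), 0 in either direction between genotypes on chow (median -0.00 to 0.11), 18 to 20 higher and 0 lower in HuMgat2 on HFD (median 1.07 to 1.37), and 9 to 16 with a different diet effect. Of the called members, 10 of 19, 0 of 5, 17 of 19 and 9 of 14 kept their call in every setting for HFD in WT, HFD in HuMgat2, genotype on HFD and the difference of diet effects. The cause of the lost calls was not tested. All-gene medians stayed within 0.1 of 0 under the other scalings. No paired analysis was possible because the library numbers 1 to 16 are not shared between groups. With 4 libraries a group, small changes are not resolved, and levels below about 1 CPM, such as Npc1l1, rest on few counts.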
